A study of Mus musculus with 111 samples.

Results

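Dbp, Tef, Hlf, Nfil3 and Sphk2 were followed over the day in the mouse tuberomammillary nucleus (TMN), the posterior hypothalamic region that holds the histamine neurons of the brain. The 5 genes were chosen by name, as the PAR bZIP transcription factors, the repressor that shares their binding site, and the gene that overlaps Dbp, out of 54087 gene rows in each count file. The RNA came from the TMN of adult C57BL/6 mice, sequenced after injection there of an adeno-associated virus (AAV). The virus carried GFP with no histone, the wild-type H3.3 histone, or H3.3 Q5A, in which an alanine stands in place of glutamine 5, to which monoamines are attached. All vectors also carried GFP, the tissue was dissected under its fluorescence, and the viral histone was added to the endogenous H3.3 rather than replacing it. Each virus was sampled at zeitgeber times (ZT) 0, 4, 8, 12, 16 and 20, where ZT0 is lights on. There were 32 GFP, 39 H3.3 and 39 Q5A libraries, with 4 to 8 per combination of virus and ZT (18 groups), and the 71 GFP and H3.3 libraries were pooled as controls. The cohorts of the labels were spread unevenly over virus and ZT. Cohorts 1, 2 and 3 held 24, 10 and 5 H3.3 libraries and 26, 10 and 3 Q5A libraries. GFP had 28 in cohort 1, 4 in cohort 2 and none in cohort 3, which also held no library at ZT0 or ZT20.

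DBP, TEF and HLF are proline and acidic amino acid-rich basic leucine zipper (PAR bZIP) activators. They bind D-box elements as dimers and carry the time of the core clock to output genes. Dbp itself is a textbook target of CLOCK and BMAL1, which act through E-boxes, and its transcript peaks late in the light phase in many mouse tissues, with Tef and Hlf usually cycling less. NFIL3 (E4BP4) binds the same D-boxes as a repressor and often peaks opposite to DBP. Sphk2 encodes sphingosine kinase 2, an enzyme that makes sphingosine 1-phosphate, and is included for its position.

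Dbp lies at chr7:45705088-45710203 on the plus strand and Sphk2 at chr7:45709467-45718002 on the minus strand (GRCm38), so that the genes run towards each other and overlap at their 3′ ends. Exon 4 of transcript Dbp-201, which ends the gene, lies wholly inside exon 7 of Sphk2-202. The shared stretch is 539 bases, chr7:45709665-45710203, which is 18% of the annotated exon bases of Dbp and 13% of those of Sphk2. At its other end Sphk2 shares 373 exon bases with Rpl18, a ribosomal protein gene on the plus strand. Car11, a carbonic anhydrase-related gene on the plus strand, ends 406 bases before Dbp starts. Tef (chr15:81802421-81826863, plus strand) shares 193 exon bases with the antisense gene Gm17597, which has no row in the files, and Hlf (chr11:90336536-90390895, minus strand) and Nfil3 (chr13:52967209-52981073, minus strand) overlap no annotated exon on the other strand.

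**Figure D1:**
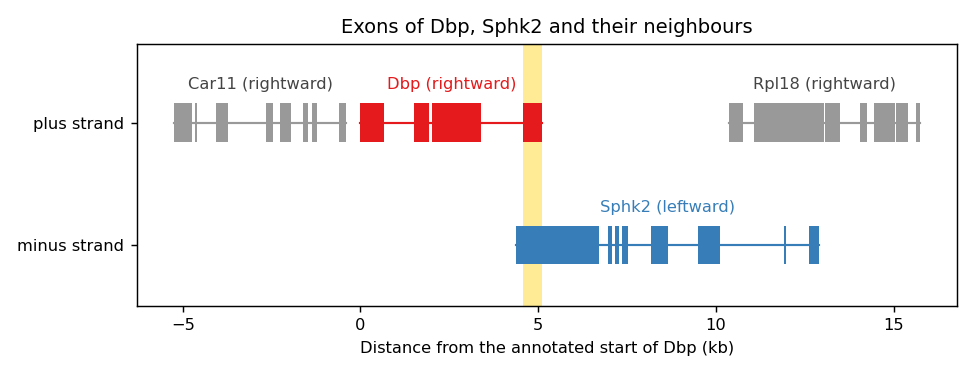
Exons (boxes) of Car11, Dbp, Sphk2 and Rpl18 against distance from the annotated Dbp start in kb, with plus-strand genes above and minus-strand genes below. The yellow band is the stretch of 539 bases in which exons of Dbp and Sphk2 lie opposite each other.

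The promoter letters of the 5 genes were read to see which of them hold the core clock element. RefSeq (GRCm38.p6) gave 7 promoter windows of 300 bases, 250 before and 50 after a transcript start, with 2 windows each for Sphk2 and Tef. They were searched on both strands for the palindromic E-box CACGTG and for the D-box as TTATGTAA or TTACGTAA. Both Tef windows held an E-box, at 127 and 138 bases before the start, and the windows of Dbp, Sphk2, Hlf and Nfil3 held neither motif. Over all 32851 RefSeq mouse promoters of this length, 7.15% held the E-box and 1.06% a D-box. The E-box stretches of Tef are printed to show the element that was found, 30 bases each on the plus strand at chr15:81802534-81802563 and chr15:81811264-81811293, with the E-box in capitals. The 150 bases before the inner Sphk2 start (chr7:45715208-45715357, minus strand) are printed as a window of the locus without a match.
Tef outer start: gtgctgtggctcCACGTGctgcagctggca
Tef inner start: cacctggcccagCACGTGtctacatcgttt
Sphk2 inner start: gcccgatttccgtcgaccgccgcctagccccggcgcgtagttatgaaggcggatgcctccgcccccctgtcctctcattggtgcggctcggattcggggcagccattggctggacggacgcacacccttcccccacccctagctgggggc
The inner Sphk2 start faces the start of Rpl18, and the letters above lie between them in no annotated exon. A match is a description of these windows, and elements further away, such as those inside genes, were not searched.

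The libraries held between 673306 and 3375352 reads assigned to genes. The authors counted reads only on the annotated strand of a gene, and between 3.49% and 5.63% of uniquely placed reads fell in a gene row. Stranded kits of the type used give a first read that runs against its transcript. Reads of a gene would then be counted for the gene on the other strand. Each value below is therefore called the value of a row. Whether a row holds reads of its own transcript was not tested, also for Hlf and Nfil3, which overlap no annotated exon opposite. In 7 libraries, 6 control and 1 Q5A, the profile stood apart from the rest (correlation with the median profile under 0.9 over 9542 genes, lowest 0.793, median 0.964). Replicates 2 and 3 of cohort 2 in Q5A at ZT4 differed by only 6 reads in 3 rows, far less than sampling noise, so that they count once. Hdc, the enzyme that makes histamine and defines TMN neurons, had a median of 4 reads per library. H3f3a and H3f3b had medians of 5 and 22 reads, and whether these rows hold reads of the viral histone is not given in the sources used here. In bulk tissue, fewer cells of a type and less RNA per cell cannot be told apart.

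The Sphk2 row was by far the most abundant of the 5. Its median was 866.5 reads per library (336 to 2144), against 47 for Tef (19 to 258), 29 for Dbp (8 to 128), 10 for Hlf (0 to 93) and 2 for Nfil3 (0 to 10). Per kb of exon the order was Sphk2, Dbp, Tef, Hlf and Nfil3. In controls the mean normalised count per kb (counts divided by the size factor of the library and the exon length) was 220.8 for Sphk2, 9.99 for Dbp, 6.34 for Tef, 1.81 for Hlf and 0.934 for Nfil3. Sphk2 was above Dbp per kb in 110 of 110 libraries, by a factor of 8.61 to 62.7. Dbp was above Hlf per kb in 109 of 110 libraries. The neighbours in this order were less separated, since Tef was above Dbp in 12 of 110 libraries and Hlf above Nfil3 in 85. Of the plus-strand genes of the locus, Rpl18 had 18.9 and Car11 10.8 per kb in controls, beside the 9.99 of Dbp. Rpl18 was above Dbp per kb in 101 of 110 libraries (median ratio 1.88), and Dbp was above Car11 in 62 of 110 (median ratio 1.07). Sphk2, the minus-strand gene between them, was above Rpl18 per kb in 110 of 110.

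To ask which rows cycled, each was tested with JTK_CYCLE, the rank test used by the study, against periods of 8 to 24 h, with a call at an adjusted p under 0.05. This adjusted p allows for the templates tried on a gene but takes no account of how many genes were tested. The Benjamini-Hochberg q over all 18456 genes tested is given beside it. A 24 h cosinor fitted with edgeR gave the amplitude, which is the fitted peak minus the fitted mean on the log2 scale, and the peak time.

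The Dbp row rose to a maximum at ZT12 in controls and in Q5A. In controls the lowest, median and highest normalised counts of the Dbp row were 12.7, 22.5 and 32.4 at ZT0 (n = 9), 18.8, 26.7 and 36.3 at ZT4 (n = 11) and 13.7, 28.4 and 59.0 at ZT8 (n = 13). They were 21.2, 39.4 and 46.9 at ZT12 (n = 13), 19.9, 26.6 and 64.4 at ZT16 (n = 14) and 18.2, 24.3 and 39.3 at ZT20 (n = 11). The ranges overlapped, and 10 of 13 libraries at ZT12 lay above every library at ZT0. In Q5A the same values were 22.1, 27.7 and 31.3 at ZT0 (n = 6), 21.2, 31.9 and 47.2 at ZT4 (n = 7), 27.8, 34.9 and 43.2 at ZT8 (n = 6), 31.8, 43.0 and 53.1 at ZT12 (n = 7), 20.6, 36.6 and 40.6 at ZT16 (n = 7) and 15.0, 24.8 and 38.7 at ZT20 (n = 6). All 7 Q5A libraries at ZT12 were above all 6 at ZT0. The mean at ZT12 was 1.64 times that at ZT0 in controls and 1.62 times in Q5A. The amplitude of Dbp was 0.31 ± 0.07 (SE, log2) in controls, with a peak at ZT 11.4 ± 0.80 h, and 0.32 ± 0.08 in Q5A, with a peak at ZT 10.5 ± 0.90 h.

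Sphk2 had the smallest p of the 5 rows for a rhythm in controls, with its highest mean at ZT12, as Dbp had, at a much higher level. The lowest, median and highest normalised counts of the Sphk2 row in controls were 529.7, 692.4 and 1014.5 at ZT0, 557.3, 658.7 and 1153.6 at ZT4, and 676.1, 1099.5 and 1548.4 at ZT8. They were 638.4, 1224.4 and 2109.8 at ZT12, 572.0, 777.6 and 1696.1 at ZT16, and 418.7, 592.8 and 1636.4 at ZT20. All 13 libraries at ZT12 were above the median at ZT20, although the ranges overlapped. The Q5A row went from medians of 709.2 at ZT0 and 713.1 at ZT4 to 915.2 at ZT8 and 1254.3 at ZT12, then 767.9 at ZT16 and 689.5 at ZT20. Its values at ZT12 (516.7 to 1499.9) and at ZT20 (462.8 to 1589.7) overlapped over nearly their whole range. The amplitude was 0.49 ± 0.07 in controls, a fitted peak 1.98 times the trough, and 0.29 ± 0.09 in Q5A, and the fitted peaks were at ZT 10.6 ± 0.55 h and ZT 10.8 ± 1.21 h.

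**Figure D2:**
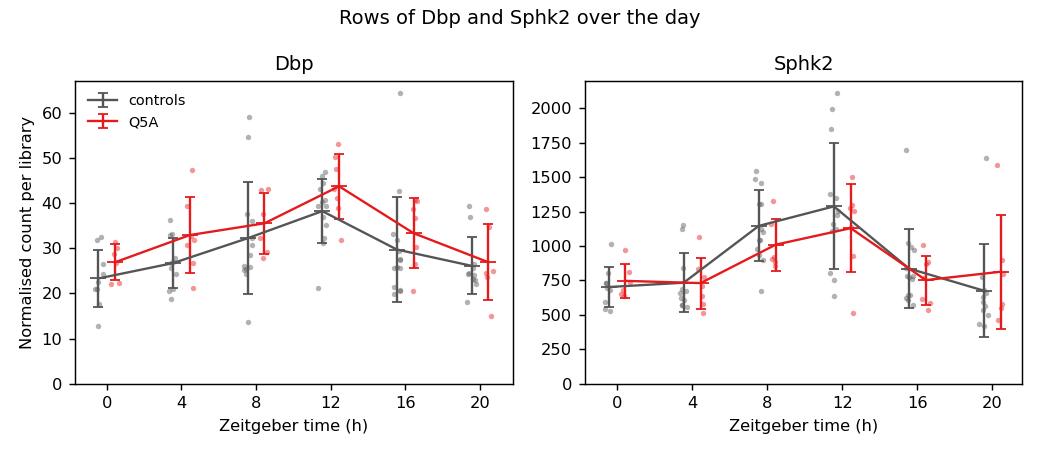
Normalised count of the Dbp and Sphk2 rows against zeitgeber time in controls (grey, 9 to 14 libraries per ZT) and Q5A (red, 6 or 7). Points are libraries, and lines and bars are the mean ± SD. Both rows are highest on average at ZT12 in both arms, and the median ratio of the Sphk2 row to the Dbp row was 28.5.

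By JTK_CYCLE, 4 of the 5 members were called in controls, against 10.7% of all genes tested. Sphk2 had an adjusted p of 7.79e-07, rank 6 of 18456 genes, with a best template of 20 h and a peak at 10 h. Dbp followed with an adjusted p of 0.000521 (24 h, peak at 12 h), then Hlf with 0.0123 (24 h, peak at 20 h) and Tef with 0.0373 (24 h, peak at 12 h). Nfil3 had an adjusted p of 1. By q under 0.05 only Sphk2 was called (q = 0.00218), against 0.612% of all genes. The q of Dbp was 0.0586. In the 24 h cosinor 3 members were called in controls by edgeR at an adjusted p under 0.05, against 12.7% of 11897 genes tested. These were Sphk2 (adjusted p = 2.14e-05), Dbp (0.00571) and Hlf (0.00869), and Tef had 0.0583. Nfil3 did not pass the filter on low counts in any edgeR fit, so 4 members were tested there. Within cohort 1, the largest of 3 cohorts given in the labels, the JTK_CYCLE adjusted p was 3.70e-05 for Sphk2, 0.0164 for Tef, 0.0526 for Dbp and 0.242 for Hlf. The cosinor within cohort 1 called all 4 members it tested by edgeR, with an adjusted p of 0.000278 for Sphk2, 0.00795 for Hlf (amplitude 0.63), 0.0158 for Tef and 0.0479 for Dbp (amplitude 0.22). The share of all genes called within cohort 1 is not given here, so these calls cannot be set against it. Cohorts 2 and 3 held too few libraries per ZT for a test of their own.

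In Q5A, Dbp was the only member called by JTK_CYCLE (adjusted p = 0.00503, 24 h, peak at 12 h, rank 64), against 2.26% of all genes, and its q was 1. The adjusted p was 0.0981 for Sphk2, 0.183 for Tef, 0.765 for Nfil3 and 1 for Hlf. No member was called by q, where 0.00542% of genes were. The Sphk2 call moved with single libraries, since its adjusted p was 0.0452 without cohort 1 replicate 1 at ZT0, 0.0247 without cohort 2 replicate 1 at ZT12 (1 of the 7 libraries that stood apart) and 0.0193 without cohort 1 replicate 3 at ZT20. The cosinor called 0 of 4 members in Q5A, against 0.239% of 11706 genes. By edgeR 3 of the 4 had an unadjusted p under 0.05 there, and DESeq2 also called 0 with 3 under 0.05. The share of all genes with an unadjusted p under 0.05 is not given here or below, so such counts cannot be set against it. The lowest adjusted p was that of Dbp (0.0912).

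The control viruses were also tested separately. In GFP, JTK_CYCLE called Dbp (0.00135) and Sphk2 (0.0305), against 6.71% of genes, with Tef at 0.0557. In H3.3 it called Sphk2 (0.000103) and Hlf (0.00497), against 3.99%, with Dbp at 0.521. No member passed q under 0.05 in GFP, where 0% of genes did, or in H3.3, where 0.00542% did. The cosinor called Dbp in GFP (adjusted p = 0.0229, 5.7% of genes called) and Sphk2 and Hlf in H3.3 (0.000547 and 0.0317, 0.783% called), all by edgeR. The amplitude of Dbp was 0.36 ± 0.08 in GFP and 0.26 ± 0.11 in H3.3, and within cohort 1 it was 0.33 in GFP and 0.08 in H3.3 (edgeR adjusted p = 0.849). For Sphk2 it was 0.33 ± 0.11 in GFP and 0.62 ± 0.09 in H3.3, where all 7 libraries at ZT12 (1161.0 to 1992.3) lay above all 6 at ZT20 (418.7 to 778.7). The Sphk2 call in GFP was lost on leaving out any of 12 of the 32 libraries in turn (highest adjusted p 0.0737). These calls describe each virus by itself, and the differences are tested below.

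**Figure D3:**
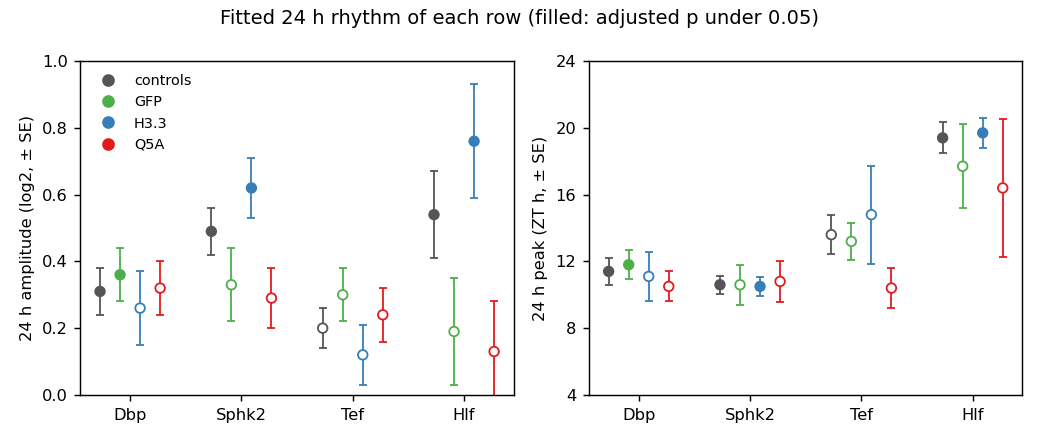
Fitted 24 h amplitude (left, log2 ± SE) and peak time (right, ZT in h ± SE) of the Dbp, Sphk2, Tef and Hlf rows in controls, GFP, H3.3 and Q5A. Filled points have an adjusted p under 0.05, and no Q5A point is filled. Dbp and Sphk2 peak between ZT 10.5 and ZT 11.8 in every arm.

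Because exons of Dbp and Sphk2 lie opposite each other, the rows were compared library by library. On the log2(normalised count + 1) scale, Pearson's r between the Dbp and Sphk2 rows was 0.43 over 110 libraries (permutation p = 2.00e-05, 2-sided, adjusted over 20 relations 0.0004) and Spearman's rho was 0.42 (adjusted p = 0.0004). Pearson's r was 0.36 within cohort 1, 0.42 within cohort 2 and 0.70 within cohort 3. Cohort 3 held only 5 H3.3 and 3 Q5A libraries, and 3 of its libraries stood apart. Over all cohorts r was 0.39 without the 2 libraries whose Dbp values were farthest from the median, and 0.40 without the 7 libraries that stood apart. With the mean of each group of virus and ZT removed, so that the time of day no longer entered, r was 0.29 (permutation within groups, p = 0.00773, adjusted 0.0193). That relation did not hold by ranks (rho = 0.16, p = 0.134, adjusted 0.223), within cohort 1 (r = 0.13, p = 0.41) or without the 2 libraries whose Dbp values were farthest from the median (r = 0.20, p = 0.068). It was 0.23 without the 2 libraries with the largest deviations of Dbp from their group, and 0.18 (permutation p = 0.131) without the 7 libraries that stood apart. Within cohort 2 it was 0.53, but that cohort held at most 2 libraries per group, in some groups 1, and the value was not tested. Leaving out each cohort 1 replicate number in turn gave 0.27 to 0.37. The relation within groups thus held under some of these choices and not under others. Cohort 3 held too few libraries per group for a value. The median ratio of the Sphk2 row to the Dbp row in controls was lowest at ZT20 (22.4, range 17.8 to 41.7) and highest at ZT8 (36.1, range 25.9 to 76.4), and in Q5A it was lowest at ZT16 (21.5, range 15.3 to 33.5) and highest at ZT20 (34.4, highest 46.0). The ranges overlapped in both arms, and a change of the ratio over the day was not tested. Rpl18, which shares exon bases with the other end of Sphk2, had no call in controls (JTK_CYCLE adjusted p = 0.633), and its fitted peak in Q5A, where it was called (0.000824), was at ZT 19.1 ± 0.76 h. Car11, the neighbour before Dbp, was called in no arm (adjusted p = 1 in all 4). How many of the reads in the Sphk2 row came from transcripts of either strand cannot be told apart from row counts.

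**Figure D4:**
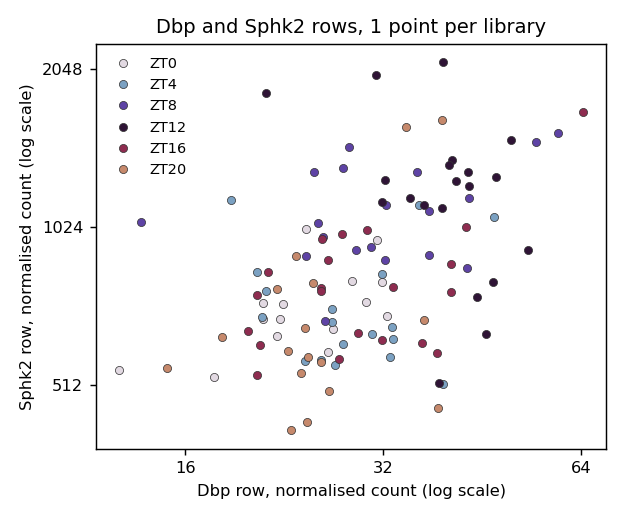
Normalised count of the Sphk2 row against that of the Dbp row, both on log axes, with 1 point per library (110) coloured by zeitgeber time. Most ZT8 and ZT12 libraries lie in the upper right, and the spread of Sphk2 at a given Dbp value is wide (r = 0.43).

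All 10 pairs of members were compared in this way. Hlf and Nfil3 were positively related over libraries (permutation, r = 0.31, adjusted p = 0.00447, and rho = 0.30, adjusted 0.011) and within groups (r = 0.32, adjusted 0.00906, and rho = 0.31, adjusted 0.013), with r of 0.25 and 0.26 without the 2 farthest libraries. Sphk2 and Nfil3 were negatively related over libraries (r = -0.28, adjusted 0.00906, and rho = -0.29, adjusted 0.011), with r = -0.20 within groups (adjusted 0.0875). Sphk2 and Tef had r = -0.12 over libraries and r = -0.37 within groups (permutation, adjusted 0.0023, with rho = -0.40, adjusted 0.0011). The relation within groups was -0.35 in cohort 1 and 0.02 in cohort 2, which held at most 2 libraries per group. Tef and Hlf had r = 0.29 over libraries and r = 0.33 within groups (permutation, adjusted 0.00906 in both), while rho missed the threshold (0.21, adjusted 0.0577, and 0.25, adjusted 0.055), and r was 0.16 and 0.17 without the libraries that stood apart. For Dbp and Tef, r was 0.24 over libraries (adjusted 0.0291), 0.09 within cohort 1 and -0.00 within groups. All rows of a library share its depth and composition.

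Tef, the second PAR bZIP activator, had the row with the smallest amplitude of the 4 members fitted in controls. The lowest, median and highest normalised counts in controls were 30.1, 39.9 and 57.4 at ZT0, 29.4, 45.3 and 79.7 at ZT4, 32.7, 51.8 and 70.2 at ZT8, 34.0, 56.9 and 92.5 at ZT12, 39.1, 50.7 and 72.5 at ZT16, and 31.7, 49.1 and 89.1 at ZT20. The ranges overlapped at every pair of times. The amplitude was 0.20 ± 0.06 in controls with a peak at ZT 13.6 ± 1.16 h, and 0.24 ± 0.08 in Q5A with a peak at ZT 10.4 ± 1.21 h. The JTK_CYCLE call in controls was lost on leaving out any of 22 of the 71 libraries in turn (highest adjusted p 0.0846), and it was 0.00886 without the libraries that stood apart. The cosinor of Tef in controls, not called over all libraries, was called without those libraries (edgeR adjusted p = 0.00961) and within cohort 1 (0.0158). Tef was highest in GFP at ZT12, with a lowest, median and highest of 56.9, 62.9 and 92.5 (n = 6), against 34.0, 43.8 and 61.1 in H3.3 (n = 7) and 40.7, 57.5 and 88.3 in Q5A (n = 7). The GFP and H3.3 ranges overlapped only between 56.9 and 61.1, and H3.3 minus GFP at ZT12 was -0.65 ± 0.20 (SE, log2, edgeR adjusted p = 0.0786), short of the threshold.

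Hlf, the third activator, had a row that was highest late in the dark phase in controls rather than with that of Dbp. Its highest values were those of 3 H3.3 libraries. At ZT20 the 6 H3.3 libraries had normalised counts of 39.2, 47.3, 58.4, 16.8, 13.9 and 13.5, and the 5 GFP libraries 18.1, 13.4, 16.1, 9.62 and 6.04. The 3 high values belonged to cohort 1 replicates 1 to 3, and replicates 2 and 3 were among the libraries that stood apart. Elsewhere in controls the median was between 6.57 (ZT8) and 11.1 (ZT12), and in Q5A it was lowest at ZT12 (6.81) and highest at ZT8, with 8.12 at ZT20. The amplitude was 0.54 ± 0.13 in controls with a peak at ZT 19.4 ± 0.93 h, 0.76 ± 0.17 in H3.3, 0.19 ± 0.16 in GFP and 0.13 ± 0.15 in Q5A. Without the 7 libraries that stood apart, a choice made after seeing the data, the JTK_CYCLE adjusted p of Hlf was 0.0968 in controls and 0.0611 in H3.3, and the edgeR adjusted p of its cosinor was 0.031 in controls (amplitude 0.40) and 0.156 in H3.3 (amplitude 0.60). At ZT20, H3.3 minus GFP was 1.29 ± 0.39 (log2, edgeR adjusted p = 0.333) and Q5A minus controls -0.97 ± 0.42 (adjusted p = 0.419).

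Marker rows of other cells also moved with the time of day in controls. The summed normalised count of 5 oligodendrocyte markers had its highest median in controls at ZT0 (2615.8), with 2400.0 at ZT20 and 1070.5 at ZT8. Its JTK_CYCLE adjusted p was 0.00166, with a best template of 20 h and a peak at 0 h. That of 4 histamine neuron markers had medians of 149.9 and 87.2 (0.00138), and that of 4 endothelial markers 29.0 and 19.3 (0.00333). Most reads of the histamine neuron sum came from Slc18a2, while Hdc had a median of 4 reads per library. That call thus mainly describes the Slc18a2 row, and no call is given here for Hdc by itself. The 4 pituitary markers were also called in controls (0.00467), although Cga, Prl and Gh had medians of 0 reads, and the markers of astrocytes (0.361), microglia (1) and neighbouring hypothalamic neurons (0.794) were not. In Q5A none of the 7 marker sums was called (lowest adjusted p 0.246). Of all genes, 10.7% were called in controls (71 libraries) and 2.26% in Q5A (39 libraries). A difference of the marker sums between the arms was not tested. In the H3.3 libraries at ZT20 with the 3 high Hlf values the oligodendrocyte sum was 3084.4, 4725.7 and 3649.5, and in the other 3 it was 2046.4, 1163.9 and 1093.1. The endothelial sum was 54.1, 67.1 and 46.4 in the former and 19.5, 22.1 and 24.3 in the latter, with no overlap in either sum. The sums for histamine neurons, neighbouring hypothalamic neurons, astrocytes, microglia and pituitary did overlap between these libraries. The part of these differences in the Hlf, Tef, Dbp and Sphk2 rhythms was not tested. The total count per library did not cycle in controls or in Q5A (adjusted p = 1 in both).

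**Figure D5:**
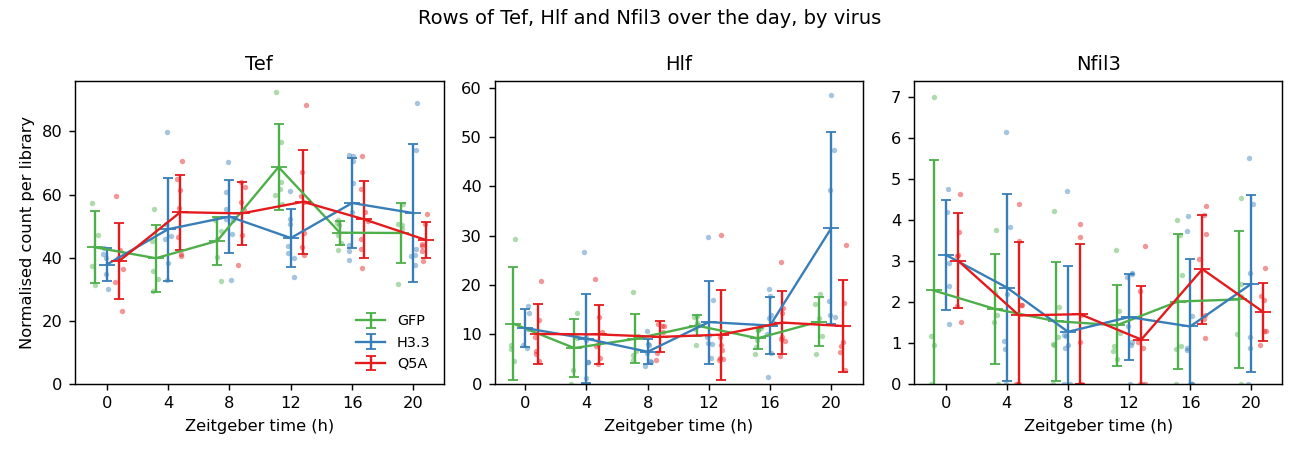
Normalised count of the Tef, Hlf and Nfil3 rows against zeitgeber time for GFP (green), H3.3 (blue) and Q5A (red). Points are libraries, and lines and bars are the mean ± SD. The Hlf mean of H3.3 at ZT20 is raised by 3 libraries between 39.2 and 58.4, and Nfil3 stays at or under 7 normalised counts in every library.

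Nfil3, the repressor of the D-box, had the row with the fewest reads of the 5 and with no called rhythm in any arm. It had no read in 13 of 71 control and 8 of 39 Q5A libraries. Its highest means were at ZT0 in both arms, 2.76 ± 2.22 (SD, n = 9) in controls and 3.01 ± 1.15 (n = 6) in Q5A, and its lowest mean in controls was 1.39 ± 1.47 (n = 13) at ZT8. The cosinor amplitude with no filter on low counts was 0.21 ± 0.12 in controls and 0.22 ± 0.16 in Q5A. What amplitude could be detected with so few reads in a row was not tested.

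The main question of the design was whether Q5A changed these rows. The difference in the 24 h rhythm between Q5A and controls, tested as an interaction in edgeR, was called for 0 of 4 members, against 0.106% of 13254 genes tested. None had an unadjusted p under 0.05, and DESeq2 also called 0 with none under 0.05. For Dbp the amplitude in Q5A minus that in controls was 0.01 ± 0.10 (log2, adjusted p = 0.864). For Sphk2 the amplitude differed by -0.21 ± 0.11 (0.5), for Tef by 0.04 ± 0.10 (0.481) and for Hlf by -0.40 ± 0.20 (0.404). The calls of Sphk2, Tef and Hlf in controls and not in Q5A were therefore not shown to be a difference between the arms. The level over all ZT differed for 0 of 4 members at an adjusted p under 0.01, where 0.0151% of genes were called. The mean normalised count of Dbp was 33.5 in Q5A and 29.9 in controls, a log2 difference of 0.16 ± 0.07 (SE, edgeR adjusted p = 0.839). Dbp was the 1 member with an unadjusted p under 0.05 by edgeR and by DESeq2. The log2 difference was -0.03 ± 0.08 for Sphk2, 0.04 ± 0.07 for Tef and -0.07 ± 0.17 for Hlf. Nfil3, tested only with no filter, had 0.06 ± 0.11. At single ZT 0 of 23 tests of members were called, where 0% of 59541 tests over all genes were, and 1 had an unadjusted p under 0.05 (Hlf at ZT20), the same number as by DESeq2. Within cohort 1 the 3 comparisons also called 0 members.

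H3.3 was compared with GFP in the same way, since the 2 viruses were pooled as controls. The rhythm differed for 0 of 4 members, against 0.0151% of 13264 genes, with 0 under an unadjusted p of 0.05 by edgeR and by DESeq2. The amplitude in H3.3 minus that in GFP was 0.57 ± 0.24 for Hlf (interaction adjusted p = 0.393), 0.29 ± 0.14 for Sphk2 (0.489), -0.10 ± 0.14 for Dbp (0.91) and -0.18 ± 0.13 for Tef (0.708). These p-values again test amplitude and peak time together. The peak in H3.3 minus that in GFP was 2.00 ± 2.67 h for Hlf, -0.13 ± 1.33 h for Sphk2, -0.63 ± 1.71 h for Dbp and 1.63 ± 3.12 h for Tef. The level over all ZT differed for 0 of 4, where 0% of genes were called, with log2 differences of 0.26 ± 0.17 for Hlf, 0.05 ± 0.10 for Sphk2, 0.03 ± 0.09 for Tef and 0.01 ± 0.09 for Dbp. At single ZT 0 of 22 tests were called, where 0% of 56187 were. In this comparison 2 had an unadjusted p under 0.05 by edgeR and 2 by DESeq2, and by edgeR these were Tef at ZT12 and Hlf at ZT20.

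For each member, the 3 rows with the most similar pattern were found by Pearson's r over the 18 means of virus and ZT, among 9542 genes with a mean of at least 10 reads. These are descriptions, since the highest of so many correlations is high by selection. Dbp was most like Rab26 (r = 0.86), a small GTPase of vesicles, Ddx39b (0.85), an RNA helicase of splicing and export, and Crtac1 (0.83), which shares 203 exon bases with an antisense gene. Sphk2 was most like Thra (0.80), the thyroid hormone receptor alpha gene, then Rbm3os (0.79) and RP23-338G5.3 (0.78). Thra shares 263 exon bases with the clock repressor gene Nr1d1 on the other strand (chr11:98767932-98775333 for Nr1d1), and Rbm3os shares 94 with Rbm3, so the first 2 rows lie opposite another gene as Sphk2 does. Tef was most like Por (0.90), the cytochrome P450 reductase, Fbxo21 (0.88) and Pgm2 (0.88). Hlf was most like Dagla (0.94), an enzyme that makes the endocannabinoid 2-arachidonoylglycerol, Rgs4 (0.91) and AC121838.2 (0.88). Nfil3 was most like RP24-318B2.1 (0.78), RP24-247M18.6 (0.76) and Zfp410 (0.75). Between the members, r over the 18 means was 0.76 for Dbp and Tef, 0.68 for Dbp and Sphk2, -0.54 for Dbp and Nfil3 and -0.04 for Dbp and Hlf.

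Genes of the clock around these factors were described as lists. Of 19 genes of the clock loop, 6 were called by JTK_CYCLE in controls, where 10.7% of all genes were, and 1 in Q5A, where 2.26% were. The edgeR cosinor called 5 of 16 in controls, beside 12.7% of all genes, and 0 of 15 in Q5A, beside 0.239%. Their median cosinor amplitude was 0.21 in controls and 0.13 in Q5A, beside 0.17 and 0.16 over all genes. Clock (adjusted p = 0.000573), Nr1d1 (0.000761), the gene of the repressor REV-ERBα, Per1 (0.00105), a period gene induced through E-boxes, and Nr1d2 (0.027) were called in controls, and Npas2 (0.0269) in Q5A with a median of 3 reads. The best template of Clock in controls was 16 h, and its 24 h cosinor was not called (edgeR adjusted p = 0.0514), nor was that of Nr1d2 (0.0504). Per1 had an amplitude of 0.50 ± 0.09 and a peak at ZT 14.4 in controls. Nr1d1, which overlaps Thra, had a median of 2688.5 reads and 0.22 ± 0.05 with a peak at ZT 7.83. Per2 (0.222 in controls) and Arntl, the gene of BMAL1 (1), were not called, with medians of 6.5 reads each.

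Of 8 genes reported as targets of PAR bZIP factors outside the clock, 6 had enough reads for JTK_CYCLE. Of these 2 were called in controls and 1 in Q5A, beside 10.7% and 2.26% of all genes. Por, the reductase that serves cytochrome P450 enzymes, had an adjusted p of 0.0127 in controls (amplitude 0.34 ± 0.08, peak at ZT 14.2) and 1 in Q5A. Alas1, the first enzyme of heme synthesis, had 0.00126 in controls and 0.0139 in Q5A, with amplitudes of 0.29 ± 0.06 and 0.30 ± 0.08 and peaks at ZT 7.61 and ZT 6.34, before that of Dbp. Alas1 shares 465 exon bases with 4930500F10Rik on the other strand. The median amplitude of the list was 0.29 in controls and 0.25 in Q5A. Of 7 other bZIP factors of the C/EBP family, 1 of 6 tested was called in controls, Cebpg (0.00649), and 0 in Q5A, which with so few genes cannot be set apart from the same shares of all genes. Of 16 genes that make, break down or sense sphingosine 1-phosphate and ceramide, 2 were called in controls and 0 in Q5A, near the 10.7% and 2.26% of all genes. Cers1, a ceramide synthase, had a JTK_CYCLE adjusted p of 5.08e-06 in controls, with a cosinor peak at ZT 8.45. S1pr5, a sphingosine 1-phosphate receptor, had a JTK_CYCLE adjusted p of 0.00969 with a best template of 20 h. Its 24 h cosinor, with a fitted peak at ZT 21.6, was not called (edgeR adjusted p = 0.0877). In none of the 4 lists did a gene pass the edgeR test of a difference in rhythm or in level over all ZT between Q5A and controls or between H3.3 and GFP. The median level difference of Q5A minus controls was between -0.00 and 0.07 over the lists, and 0.01 over all genes.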

How the data were processed

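RNA-seq read counts of 111 libraries of TMN tissue were used as deposited. The authors aligned reads with STAR 2.7.11b to GRCm38, counted them per gene with HTSeq 2.0.5 over exons in union mode on the annotated strand, and deposited raw counts. In each file, 5 entries for reads assigned to no gene were left out. Another 18 files, which match no labelled sample, were not used here, so the wild-type part of the series was not analysed. A pair of libraries that differed by only 6 reads in 3 rows was merged, leaving 110. Groups were taken from the labels, which give virus, ZT, cohort and replicate number. Each library is treated as a replicate, and p-values measure the spread between libraries.

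Counts were normalised with size factors (median of ratios, 9428 genes). JTK_CYCLE was rewritten (20 templates, periods of 8 to 24 h in steps of 4 h) and run on genes with a read in at least 50% of libraries. edgeR 4.0.16 (TMM, filterByExpr with a minimum count of 10 and total of 15, prior count 2) gave quasi-likelihood tests with Benjamini-Hochberg adjustment, in R 4.3.3, with calls under 0.05 for rhythms and under 0.01 for levels. DESeq2 1.42.0 was an alternative. Correlations used log2(normalised count + 1) and 100000 permutations in scipy 1.17.1. The scripts were tested on simulated data. Named genes are the members, the 3 most similar rows of each, overlapping and neighbouring genes, and in each list the genes called in controls or Q5A, up to 5 by smallest p, with Per1, Per2, Nr1d1 and Arntl. The members and lists were chosen with earlier results of these data known. Alternatives covered normalization, filter, tool, pseudocount, cohort, replicate block, periods and left-out libraries. Leaving out the libraries that stood apart was added after seeing the data. Positions are those of GENCODE vM21, and promoter windows those of RefSeq.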

Additional observations from a re-analysis of the deposited data

Results flagged for a closer look

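The 5 members in the 18 combinations of virus and ZT make 90 sets of values. In 12 of them 1 library lay far above the others (Dixon's test at 95%), and 5 of the 12 values belong to libraries that stood apart. For normally distributed values chance passes this test in about 1 in 20 sets. That share need not hold for the counts used here, which were not put on a log scale. Dbp was 64.4 in H3.3 at ZT16 (cohort 3 replicate 1), where the next library had 33.1, and 36.9 in H3.3 at ZT20 (cohort 1 replicate 1), next 26.5. Sphk2 was 2109.8 in GFP at ZT12 (cohort 1 replicate 3), next 1126.7. Sphk2 was also 1636.4 in GFP at ZT20 (cohort 1 replicate 1), next 631.4, and 1696.1 in the H3.3 library at ZT16 that was high for Dbp, next 994.4. Tef was 79.7 in H3.3 at ZT4 (cohort 3 replicate 1), next 50.5, and the same library had 26.6 for Hlf, next 9.4. Hlf was 29.4 in GFP at ZT0 (cohort 1 replicate 3), next 7.83, and Nfil3 was 7 there, next 1.16. Hlf was 18.5 in GFP at ZT8 (cohort 1 replicate 5), next 9.59, and 30.2 in Q5A at ZT12 (cohort 2 replicate 1), next 9.41. Nfil3 was 4.7 in H3.3 at ZT8 (cohort 2 replicate 2), next 1.18. All values are normalised counts.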

How the results depend on the processing

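JTK_CYCLE called 4 members (controls), 1 (Q5A), 2 (GFP) and 2 (H3.3), and by q over all genes 1, 0, 0 and 0. Within cohort 1 the calls were 2 in controls and 1 in H3.3, and without the libraries that stood apart (added after seeing the data) 2 in Q5A and 1 in H3.3. Leaving out each library gave 3 to 4, 1 to 2, 1 to 3 and 2 to 2, and leaving out each cohort 1 replicate number 3 to 3, 1 to 2, 1 to 2 and 2 to 2. The cosinor called 3, 0, 1 and 2 members. It called 4 in controls (Tef gained) within cohort 1, with cohort as a covariate, with the replicate block and without the libraries that stood apart, and 2 without cohort 1 replicate 3 (Hlf lost). It called 1 in Q5A within cohort 1 (Dbp), 2 in GFP by DESeq2 and with no filter, and 1 in H3.3 without the libraries that stood apart. Without a cohort 1 replicate number it called 2 to 3, 0 to 0, 0 to 2 and 1 to 2. The counts of members with a difference between viruses stayed at 0 without each replicate number. Other than for q, the shares of all genes called under these alternatives are not given here.

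With a replicate block the cosinor called 0 members in GFP. Libraries of the same cohort and number shared little (median correlation of deviations 0.02 over 778 pairs, 30.6% of them over 0.1, against 0.01 for other numbers), so the numbers do not pair the samples.

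Small level differences changed sign. Sphk2 in Q5A minus controls was 0.02 within cohort 1 and 0.01 without cohort 1 replicate 4. In H3.3 minus GFP, Dbp was -0.01 with no filter, -0.11 within cohort 1, -0.11 with cohort as a covariate, -0.12 with the replicate block, -0.02 to 0.07 without each replicate number (-0.02 without replicate 4 or 5) and -0.06 without the libraries that stood apart. Sphk2 was -0.04 within cohort 1, -0.02 with the covariate and -0.04 with the block, and Tef -0.05 without the libraries that stood apart. The correlation of Dbp and Sphk2 ran from 0.40 to 0.52 over libraries and from 0.27 to 0.37 within groups without each replicate number, and within groups it was 0.13 in cohort 1, 0.20 without the 2 farthest libraries and 0.18 without those that stood apart. The cause of these changes was not tested. Of 1587 alternative values for single members, 1479 kept their direction and side of the threshold. Nfil3 and Hlf had the fewest reads of the members, with medians of 2 and 10.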
